A study of Rattus norvegicus with 6 samples.

Results

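Oxidative phosphorylation genes were examined in the renal cortex of rats dosed with p-nitroanisole (nitrobenzene carrying a methoxy group) or with its vehicle. The genes were chosen by symbol: those starting with Ndufa, Ndufb, Ndufc, Ndufs, Ndufv, Sdha to Sdhd, Uqcr, Cox4 to Cox8 or Atp5. A gene was tested where 1 group had a probe well above background in each of its 3 rats, and 84 of 85 such genes were. They stand among 32197 rows tested, where a row is a named gene or a probe without a name here, and among 12207 named genes. The rule takes in 73 structural subunits, 9 assembly factors (6 Ndufaf genes, Sdhaf1, Sdhaf2 and Cox7a2l), the ATP synthase inhibitor Atp5if1 and the pseudogene Cox6c-ps1. By protein, 37 genes belong to complex I, 6 to complex II, 8 to complex III, 17 to complex IV and 16 to complex V, with Ndufa4 counted in complex IV. The 85th gene, Cox8c, was not well above background in enough arrays. The label of subunit genes thus holds for most but not all of what the symbols select.

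The study measured 6 male Sprague-Dawley (Crl:CD(SD)) rats, with 1 array per animal. The daily dose of p-nitroanisole was 500 mg/kg in 3 rats, and the other 3 had corn oil, over 4 weeks in both groups, after purchase at 5 weeks of age, and all ate the same basal diet. The labels call the animals of a group biological replicates. The tissue is a bulk piece of renal cortex, so a lower share of cells of one type and less RNA per cell cannot be told apart. Signals below are multiples of the 75th percentile of the array's probes. Differences are log2, p-nitroanisole minus vehicle, with the standard error (SE) from limma. Probes bind unequally, so no gene's signal is set against another gene's.

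Oxidative phosphorylation is carried out by large complexes of the inner mitochondrial membrane. Complex I (NADH dehydrogenase) and complex II (succinate dehydrogenase) feed electrons to ubiquinone, complex III passes them to cytochrome c, and complex IV (cytochrome c oxidase) passes them to oxygen. The proton gradient that complexes I, III and IV build drives ATP synthesis by complex V. Most subunits come from nuclear genes, while a core set, which includes the catalytic subunits of complex IV, comes from mitochondrial DNA. The proximal tubule, which fills much of the renal cortex, depends on this pathway for the energy of reabsorption. None of the 13 genes encoded in mitochondrial DNA was matched to a probe here, and they were not analysed here.

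Promoter sequence was read as a feature that the choice of genes did not use. RefSeq windows of GRCr8, from 250 bases before to 50 bases after the annotated start (300 bases), were found for 74 of the 84 tested genes, 64 of them structural. They were searched on both strands for 5 short motifs named after the factors known for them in mammals. Those are a core of the NRF1 site (GCGCATGC), a GABPA site (CCGGAAGT), a YY1 site (AAGATGGC), an ERRA half-site (AAGGTCA) and the CCAAT box (CCAAT). The windows below are shown because 3 of them (Ndufb8 of complex I, Sdhc of complex II and Atp5mf of complex V) belong to genes with some of the larger differences in their complexes. That of Cox8a, of complex IV, holds 4 of the 5 motifs. They were chosen after the values were seen. The windows of Ndufa10, Uqcr10, Uqcrfs1 and Cox7a2, genes that also had some of the larger differences, held none of the 5 motifs and are not shown. Capitals mark every motif match on either strand. The windows lie at chr1:253362887-253363186 (minus strand, Ndufb8), chr13:86097976-86098275 (minus strand, Sdhc), chr12:14535185-14535484 (plus strand, Atp5mf) and chr1:213833574-213833873 (minus strand, Cox8a).
Ndufb8: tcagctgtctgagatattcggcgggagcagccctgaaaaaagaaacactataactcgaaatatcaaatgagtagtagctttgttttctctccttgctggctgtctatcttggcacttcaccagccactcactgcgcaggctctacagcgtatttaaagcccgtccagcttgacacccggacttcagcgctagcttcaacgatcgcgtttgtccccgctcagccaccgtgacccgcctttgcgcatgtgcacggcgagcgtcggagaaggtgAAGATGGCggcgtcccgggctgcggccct
Sdhc: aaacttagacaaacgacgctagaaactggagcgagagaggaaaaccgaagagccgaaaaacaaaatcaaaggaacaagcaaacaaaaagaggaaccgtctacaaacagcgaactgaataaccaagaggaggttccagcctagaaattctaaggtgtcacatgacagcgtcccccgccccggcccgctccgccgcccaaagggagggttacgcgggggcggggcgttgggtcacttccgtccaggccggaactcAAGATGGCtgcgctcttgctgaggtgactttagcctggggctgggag
Atp5mf: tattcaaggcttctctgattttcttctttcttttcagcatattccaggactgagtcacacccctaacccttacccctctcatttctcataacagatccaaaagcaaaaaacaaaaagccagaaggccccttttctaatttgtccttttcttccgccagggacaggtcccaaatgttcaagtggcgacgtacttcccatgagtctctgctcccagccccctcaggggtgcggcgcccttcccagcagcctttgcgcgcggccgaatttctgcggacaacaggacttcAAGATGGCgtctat
Cox8a: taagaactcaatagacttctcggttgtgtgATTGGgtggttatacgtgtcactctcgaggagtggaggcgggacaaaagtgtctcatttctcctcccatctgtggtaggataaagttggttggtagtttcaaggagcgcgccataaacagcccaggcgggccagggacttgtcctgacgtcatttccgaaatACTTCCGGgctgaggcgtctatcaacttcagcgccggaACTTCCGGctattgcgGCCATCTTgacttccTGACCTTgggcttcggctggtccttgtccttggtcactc

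In the windows of Ndufb8, Sdhc and Atp5mf the capitals are the letters AAGATGGC, which begin at base 22, 4 and 37 of the transcript. In Cox8a the same motif lies on the other strand across the start, from base -4 to base 4, with GABPA letters from -58 to -51 and from -20 to -13. The Cox8a window also holds the ERRA letters at 12 to 18 and the CCAAT letters at -220 to -216. AAGATGGC was found in 13 of 64 structural windows (20.3%), against 4.75% of 10476 windows of named genes tested and 3.17% of all 33469 windows. In 11 of the 13 it lay between base -10 and base 50. This motif contains the letters ATG, as a translation start does, so a match near the start is a description of letters and not of a bound site. The ERRA half-site was found in 14.1% of structural windows, against 3.17% of tested named genes, and the NRF1 core in 12.5%, against 4.31%. The GABPA site stood in 10.9%, against 7.40%, and the CCAAT box in 32.8%, against 37.6%. No match of one motif overlapped a match of another. Structural genes with AAGATGGC had a median difference of 0.14 (13 genes) and those without it 0.15 (51 genes). With and without the NRF1 core the medians were 0.13 (8 genes) and 0.15 (56 genes). For the GABPA site they were 0.12 (7 genes) and 0.15 (57 genes), and for the ERRA half-site 0.12 (9 genes) and 0.15 (55 genes). For the CCAAT box they were 0.16 (21 genes) and 0.14 (43 genes). These splits were not tested. The 9 assembly factor windows held the NRF1 core in 2, AAGATGGC in 1, and neither the GABPA nor the ERRA letters.

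The comparison asks whether 4 weeks of p-nitroanisole left transcripts of the respiratory chain at another level in the cortex. As a group they stood slightly higher with p-nitroanisole, with medians of 0.11 to 0.19 in the 5 complexes, and no single gene passed the test. The median difference over the 84 genes was 0.14 (quartiles 0.090 and 0.19), which is 10.5% higher with p-nitroanisole, against a median of 0.011 (quartiles -0.10 and 0.14) over all 32197 rows. Of the 84 genes 82 were higher with p-nitroanisole (97.6%), against 52.4% of all rows, both under 75th percentile scaling, and Cox7a2l and Ndufaf3 were lower. Under median scaling 73 of the 84 were higher and under quantile scaling 69, where the medians of all rows were -0.045 and -0.016. In 51 genes (60.7%) every p-nitroanisole array lay above every vehicle array, against 11.9% of all rows, and in 0 genes did every p-nitroanisole array lie below. The 84 genes share the same 6 arrays, so a shift of an array moves many of them together and they are not independent observations of the treatment.

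With limma and Benjamini-Hochberg adjustment over all rows, 0 of the 84 genes were called at 0.05, against 0.0745% of all rows (24 rows). The smallest adjusted p among them was 0.201, for Atp5if1. At an unadjusted p under 0.05 there were 17 higher genes (20.2%) and 0 lower ones, against 7.69% of all rows for the higher direction. Under median scaling 5 of the 84 were under 0.05 in either direction, against 4721 of the 32197 rows, and under quantile scaling 5, against 4427. The excess at this cut was thus seen under 75th percentile scaling and not under these 2 scalings. Of the 17 under 75th percentile scaling, 7 were structural genes of complex I, 1 of complex II, 3 of complex III, 3 of complex IV and 2 of complex V. The remaining gene was Atp5if1. Of the 149 tested probes of these genes, 141 gave a positive difference and 8 a negative one. Among the 45 genes with more than 1 tested probe, all probes pointed 1 way in 38, while Cox6a2, Cox7a2l, Ndufa2, Ndufab1, Ndufaf3, Ndufaf4 and Sdhaf2 had probes in both directions.

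**Figure D1:**
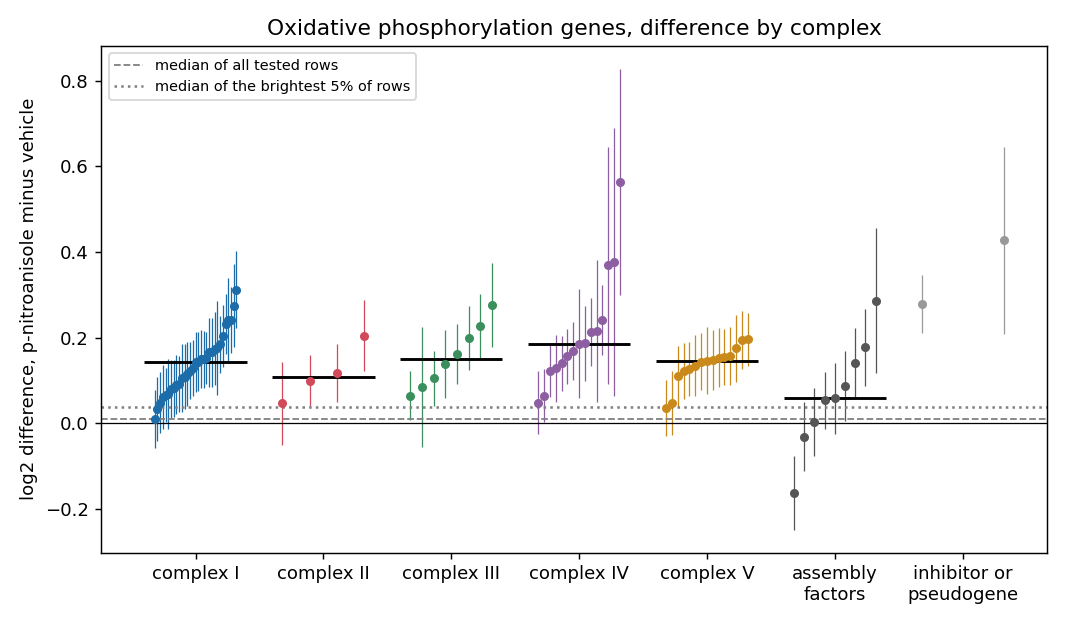
Log2 difference (p-nitroanisole minus vehicle) of each tested gene with its SE, grouped by complex and sorted by size, with black bars at group medians. The structural genes of all 5 complexes lie above 0, with medians from 0.11 to 0.19, while the 9 assembly factors run from -0.16 to 0.29.

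The size of the shift depended on the scaling of the arrays. The genes give strong signals: 62 of the 84 were among the brightest 5% of rows (1610 rows), where the median difference was 0.037 and 58.7% of rows were higher with p-nitroanisole. That median was -0.018 (45.5% higher) under median scaling and -0.022 (43.9% higher) under quantile scaling. When each array was scaled to its median instead of its 75th percentile, the median of the 84 genes was 0.089 with 73 higher, and that of all rows was -0.045. With quantile scaling it was 0.088 with 69 higher, and all rows had a median of -0.016. Relative to all rows, the genes stood 0.13 higher under percentile scaling and 0.10 higher under quantile scaling. Median scaling must give the same 0.13 as percentile scaling, since each subtracts a constant from all rows of an array, so it is no separate check.

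By array, the median shift of the 84 genes from their vehicle means was 0.073, 0.19 and 0.17 in p-nitroanisole replicates 1 to 3, against -0.0091, 0.023 and -0.014 in vehicle replicates 1 to 3. Every p-nitroanisole array thus lay above every vehicle array, and p-nitroanisole replicate 1 lay closest to them. Under median scaling the shifts were 0.020, 0.16 and 0.087 in p-nitroanisole arrays, against -0.0051, 0.021 and -0.017 in vehicle arrays, so that p-nitroanisole replicate 1 fell inside the range of the vehicle arrays. Under quantile scaling they were 0.047, 0.094 and 0.11 in p-nitroanisole arrays, against 0.0064, 0.0084 and -0.014 in vehicle arrays, with no overlap. Under median scaling complexes III and IV kept a gap between the groups, whereas complexes I, II and V did not. Under 75th percentile scaling the brightest 5% of rows shifted by 0.014, 0.058 and 0.032 in p-nitroanisole arrays, against -0.018, 0.017 and 0.0024 in vehicle arrays.

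**Figure D2:**
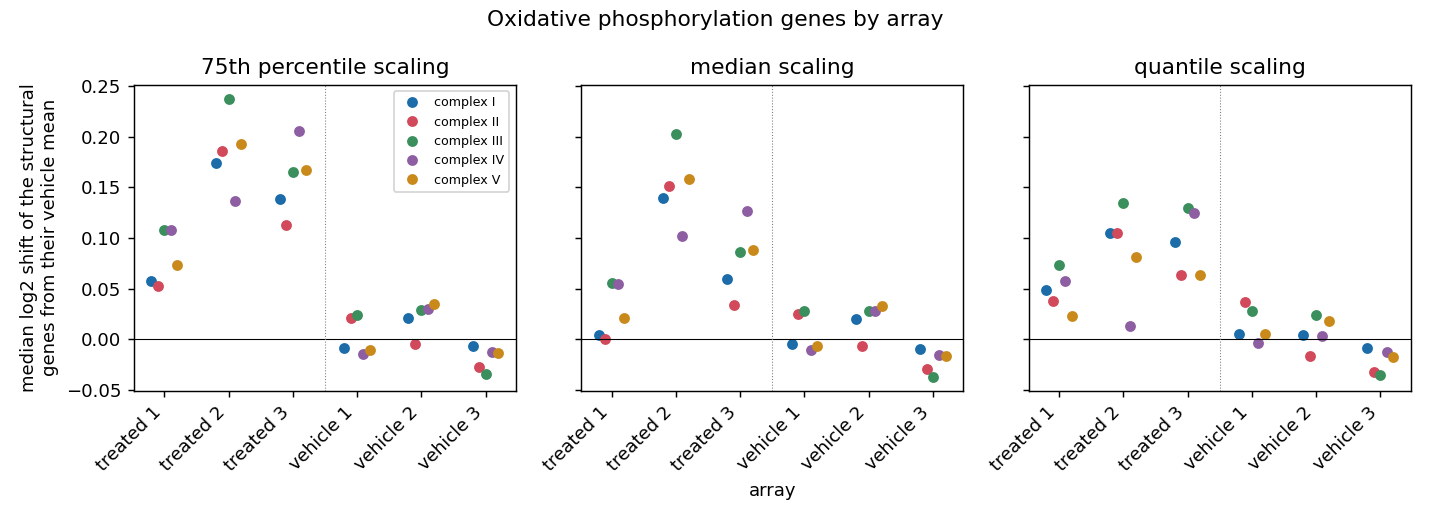
Median log2 shift of the structural genes of each complex from their vehicle mean on each array (treated is p-nitroanisole), under 3 scalings of the arrays. Replicates 2 and 3 of the treated group stand highest in each panel in most complexes, and replicate 1 lies near the vehicle arrays under median scaling.

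Slide and slide position do not match the groups evenly. Per the file headers the vehicle arrays and p-nitroanisole replicates 1 and 2 were on slide 1 and p-nitroanisole replicate 3 alone on slide 2. The vehicle arrays and p-nitroanisole replicate 3 were in row 1 of a slide and p-nitroanisole replicates 1 and 2 in row 2. Within slide 1 the median difference of the 84 genes was 0.12 with 79 higher, and within row 1, where only replicate 3 was treated, it was 0.17 with 78 higher. In slide 1 the groups differ in row, and in row 1 the p-nitroanisole array differs in slide, so in each of these comparisons treatment and position cannot be told apart.

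Complex I genes, 31 structural ones, had a median difference of 0.14 and ranged from 0.010 to 0.31, all above 0 (28 of 31 above 0 under median scaling and 27 under quantile scaling). In 19 of the 31 the groups did not overlap under 75th percentile scaling, against 11.9% of all rows. Mean signals ran from 15.5 to 222 in p-nitroanisole rats, against 14.6 to 179 in vehicle rats. The membrane arm, which pumps protons, had a median of 0.15 over 17 genes and held 6 of the 7 genes at an unadjusted p under 0.05. The peripheral arm, which takes up NADH electrons, had a median of 0.13 over 14 genes, with 0.14 for the 7 genes of its NADH-oxidising N module and 0.12 for the 7 genes of its quinone-reducing Q module.

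Ndufb8, an accessory subunit of the membrane arm whose promoter window is printed above, read 228, 230 and 209 in p-nitroanisole rats, against 187, 162 and 189 in vehicle rats. The groups did not overlap, and the lowest p-nitroanisole array, at 209, was above the highest vehicle array, at 189. This is 1.24-fold (log2 difference 0.31, SE 0.09, limma adjusted p = 0.252). Ndufa10, another accessory subunit of the membrane arm, read 21.4, 18.2 and 21.8 in p-nitroanisole rats, against 15.8, 17.7 and 17.2 in vehicle rats, a difference of 0.27 (SE 0.10, limma adjusted p = 0.322). All 3 p-nitroanisole arrays were above the vehicle arrays, with replicate 2 only just so. Its paralog Ndufa10l1 differed by 0.24 (SE 0.10). The probes of these related genes may share sequence, so their reads are not certain to be separate. Ndufc2, also of the membrane arm, read 57.1, 60.9 and 64.9 in p-nitroanisole rats, against 49.0, 52.3 and 53.3 in vehicle rats, a difference of 0.24 (SE 0.08, limma adjusted p = 0.288).

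Core subunits that carry electrons through complex I gave differences of 0.07 to 0.17. Ndufs1, which holds several iron-sulfur clusters, differed by 0.17 (SE 0.08) and read 36.8, 40.1 and 42.9 in p-nitroanisole rats, against 37.0, 35.2 and 34.5 in vehicle rats. One p-nitroanisole array overlapped the vehicle arrays. The flavoprotein Ndufv1, which takes electrons from NADH, differed by 0.08 (SE 0.07) and its partner Ndufv2 by 0.11 (SE 0.08). Ndufs7 and Ndufs8, iron-sulfur subunits near the quinone site, differed by 0.07 (SE 0.08) and 0.09 (SE 0.06), and Ndufs7 was below 0 under quantile scaling. The smallest difference was that of Ndufa2, an accessory subunit, at 0.010 (SE 0.07), which was below 0 under median and quantile scaling. None of these 6 genes reached an unadjusted p of 0.05.

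Complex II, also an enzyme of the tricarboxylic acid cycle and made only of nuclear subunits, had all 4 genes above 0 with a median of 0.11 (3 above 0 under median and under quantile scaling). Sdhc, a membrane anchor with its promoter printed above, read 40.3, 43.6 and 47.9 in p-nitroanisole rats, against 38.7, 38.1 and 37.2 in vehicle rats. The groups did not overlap, at 1.15-fold (log2 difference 0.20, SE 0.08, limma adjusted p = 0.370). The other anchor, Sdhd, read 72.0, 75.2 and 71.9 in p-nitroanisole rats, against 68.3, 69.1 and 67.1 in vehicle rats (difference 0.10, SE 0.06). Sdhb, the iron-sulfur subunit, read 47.7, 53.0 and 52.0 in p-nitroanisole rats, against 47.4, 46.5 and 46.9 in vehicle rats (difference 0.12, SE 0.07). In both the groups were apart by small steps. Sdha, the flavoprotein that oxidises succinate, read 133, 161 and 140 in p-nitroanisole rats, against 150, 135 and 135 in vehicle rats, and its difference of 0.05 (SE 0.10) was below 0 under median and quantile scaling, at -0.0089 and -0.022.

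In complex III all 8 genes were above 0 with a median of 0.15 (8 under median scaling and 7 under quantile scaling). In 7 of the 8 the groups did not overlap under 75th percentile scaling, against 11.9% of all rows. Uqcr10, a small subunit, read 267, 320 and 327 in p-nitroanisole rats, against 260, 248 and 244 in vehicle rats. Replicates 2 and 3 stood well above the vehicle arrays and replicate 1 slightly, at 1.21-fold in all (log2 difference 0.28, SE 0.10, limma adjusted p = 0.322). Uqcrfs1, the Rieske iron-sulfur protein that takes electrons from ubiquinol, read 66.4, 72.0 and 76.5 in p-nitroanisole rats, against 62.7, 60.9 and 59.8 in vehicle rats. The groups were apart on every array (difference 0.23, SE 0.08, limma adjusted p = 0.306). The core proteins Uqcrc1 and Uqcrc2, which form the matrix part of the complex, differed by 0.14 (SE 0.08) and 0.11 (SE 0.06). Uqcrh, the hinge protein that binds cytochrome c1, differed by 0.20 (SE 0.07). The smallest difference was that of Uqcr11, which read 95.7, 94.7 and 95.8 in p-nitroanisole rats, against 91.0, 93.0 and 89.8 in vehicle rats (difference 0.06, SE 0.06). Its groups did not overlap either, although the step between them was small and the difference was below 0 under quantile scaling.

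Complex IV, the site of oxygen use, had the widest range of differences among the complexes here, from 0.05 to 0.56 over 15 structural genes, with a median of 0.19 (14 above 0 under median scaling and 12 under quantile scaling). The groups did not overlap in 7 of the 15 under 75th percentile scaling, against 11.9% of all rows. The median is the value of Cox6a2, a muscle isoform described below whose probes disagreed in direction. Without Cox7c and Cox4i2, both high on p-nitroanisole replicate 3, the median was 0.17, and without that array it was 0.12. Cox7a2, the isoform of subunit 7a found in most tissues, read 72.4, 80.9 and 85.2 in p-nitroanisole rats, against 65.8, 69.4 and 66.0 in vehicle rats. The groups did not overlap (difference 0.24, SE 0.08, limma adjusted p = 0.314), and its second probe differed by 0.17 (SE 0.07). Cox6b1, the widespread isoform of a subunit that links the monomers of the dimer, read 58.1, 62.1 and 56.3 in p-nitroanisole rats, against 52.1, 53.7 and 51.0 in vehicle rats (difference 0.17, SE 0.07). Cox6a1, the liver-type isoform of subunit 6a, read 409, 428 and 445 in p-nitroanisole rats, against 384, 397 and 381 in vehicle rats (difference 0.14, SE 0.06). All 3 p-nitroanisole arrays were above the vehicle arrays in both genes. Cox8a differed by 0.12 (SE 0.06), with 277, 286 and 286 in p-nitroanisole rats, against 252, 265 and 263 in vehicle rats, but by -0.066 under quantile scaling. Ndufa4, once assigned to complex I and now to complex IV, read 127, 128 and 134 in p-nitroanisole rats, against 112, 120 and 118 in vehicle rats (difference 0.16, SE 0.06).

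Subunits 4 and 5, which hold the mitochondrial catalytic core in place, gave differences of 0.05 to 0.13 by their brightest probes, apart from Cox4i2, described below. Cox4i1, the widespread isoform of subunit 4, read 226, 240 and 242 in p-nitroanisole rats, against 227, 226 and 223 in vehicle rats. One p-nitroanisole array lay among the vehicle arrays (difference 0.06, SE 0.06, and -0.059 under quantile scaling). Cox5a, which contacts subunit 4, had the smallest difference in the complex, 0.05 (SE 0.07), with 106.6, 105 and 117 in p-nitroanisole rats, against 108, 108 and 102 in vehicle rats, and was below 0 under median and quantile scaling. Cox5b, a zinc-binding subunit, differed by 0.13 (SE 0.08), with overlap between the groups. Its other probes differed by 0.20 (SE 0.07) and 0.18 (SE 0.07), without overlap.

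The isoforms known from heart and skeletal muscle or other special tissues gave differences with wide errors. Cox8b, the muscle form of subunit 8, read 0.603, 0.384 and 0.598 in p-nitroanisole rats, against 0.305, 0.293 and 0.480 in vehicle rats. The groups overlapped (difference 0.56, SE 0.26, limma adjusted p = 0.421), and its second probe differed by 0.60 (SE 0.24). Cox6a2, the muscle form of subunit 6a, read 0.484, 0.392 and 0.521 in p-nitroanisole rats, against 0.439, 0.377 and 0.405 in vehicle rats (difference 0.19, SE 0.13), and its probes disagreed in direction. Cox6b2, known from testis, read 9.56, 8.03 and 12.3 in p-nitroanisole rats, against 8.53, 7.73 and 9.12 in vehicle rats (difference 0.22, SE 0.17). Of 6 tested markers of skeletal and heart muscle 5 were higher, with a median difference of 0.12 and a summed signal of 0.765 to 1.16 in p-nitroanisole rats, against 0.773 to 1.01 in vehicle rats. Their part in the muscle isoforms' values was not tested.

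Part of the spread in complex IV came from 1 array. For Cox7c, Cox4i2 and Cox6c-ps1 the signal of p-nitroanisole replicate 3 was more than 1.5 times that of every other array. Cox4i2, the isoform of subunit 4 linked to oxygen sensing and lung, read 4.03, 4.01 and 7.95 in p-nitroanisole rats, against 3.93, 3.90 and 3.90 in vehicle rats. Its difference of 0.37 (SE 0.28) was 0.04 without that array, and its second probe read 1.32, 1.22 and 1.52 in p-nitroanisole rats, against 1.32, 1.18 and 1.24 in vehicle rats. Cox7c, a small widespread subunit, read 6.34, 6.31 and 13.8 in p-nitroanisole rats, against 6.196, 6.34 and 6.41 in vehicle rats (difference 0.38, SE 0.31), and the other 5 arrays lay between 6.196 and 6.41. The pseudogene Cox6c-ps1 read 7.07, 7.72 and 12.4 in p-nitroanisole rats, against 6.62, 6.78 and 6.21 in vehicle rats (difference 0.43, SE 0.22). Its probe may also bind the transcript of the parent gene Cox6c, which differed by 0.21 (SE 0.08). The second probe of Ndufc2 was also high on that array, at 3.42 against 0.959 and 0.887 on the other p-nitroanisole arrays and 0.906 to 1.02 on vehicle arrays. Without p-nitroanisole replicate 3 the median of complex IV was 0.12.

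**Figure D3:**
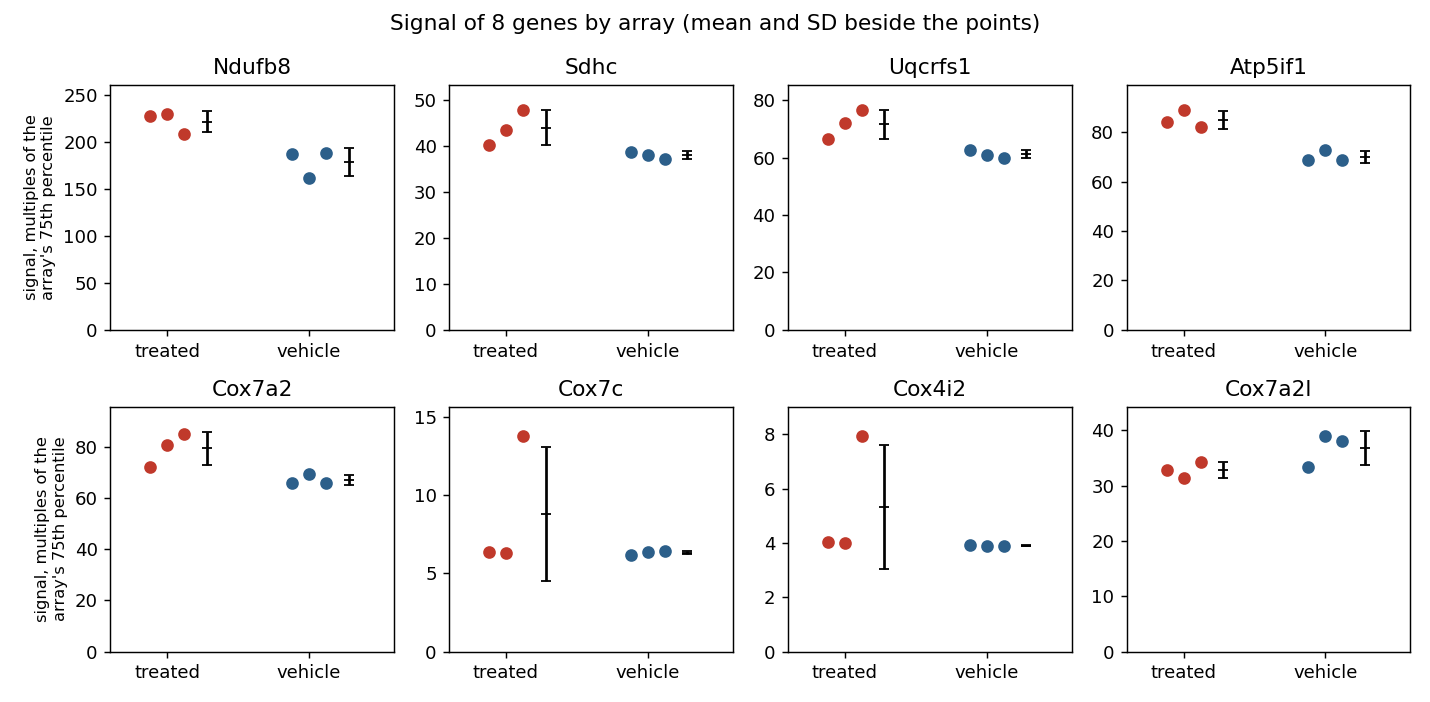
Signal of 8 genes on each array (points, in multiples of the array's 75th percentile) with the group mean and SD beside them. Ndufb8, Sdhc, Uqcrfs1, Atp5if1 and Cox7a2 do not overlap between the groups, treated replicate 3 alone is high for Cox7c and Cox4i2, and Cox7a2l is lower in treated (p-nitroanisole) rats on average with overlap.

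Complex V, the ATP synthase, had all 15 structural genes above 0 with a median of 0.15 and a range of 0.035 to 0.20 (13 above 0 under median scaling and 12 under quantile scaling). The groups did not overlap in 12 of the 15 under 75th percentile scaling, against 11.9% of all rows. Genes of the membrane accessory subunits had a median of 0.18 (4 genes), those of the catalytic head and central stalk 0.15 (5 genes), those of the peripheral stalk 0.14 (4 genes) and those of the proton-carrying c ring 0.13 (2 genes). Under quantile scaling the median of the complex was 0.033. Atp5mf, a membrane subunit known as f with its promoter printed above, read 234, 248 and 245 in p-nitroanisole rats, against 210, 217 and 208 in vehicle rats. The groups were apart, at 1.15-fold (log2 difference 0.20, SE 0.06, limma adjusted p = 0.282), and all 3 of its probes were higher. Atp5mg, the membrane subunit g, read 168, 181 and 185 in p-nitroanisole rats, against 155, 159 and 152 in vehicle rats (difference 0.19, SE 0.07, limma adjusted p = 0.317).

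The catalytic beta subunit Atp5f1b read 82.2, 89.8 and 87.9 in p-nitroanisole rats, against 78.1, 81.1 and 71.3 in vehicle rats (difference 0.17, SE 0.08). The alpha subunit Atp5f1a, which alternates with it in the head, had the smallest difference of the complex, 0.035 (SE 0.07), with 482, 503 and 488 in p-nitroanisole rats, against 472, 503 and 463 in vehicle rats, and was below 0 under median and quantile scaling. The values of Atp5f1a overlapped whereas those of Atp5f1b did not, and the difference between these genes was not tested. Atp5mc1 and Atp5mc2, which encode the same mature c subunit, differed by 0.15 (SE 0.07) and 0.11 (SE 0.07).

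Atp5if1 encodes the inhibitor that keeps the ATP synthase from hydrolysing ATP when the proton gradient fails. It read 84.1, 89.0 and 81.9 in p-nitroanisole rats, against 68.6, 72.9 and 68.6 in vehicle rats. The lowest p-nitroanisole array stood clear of the highest vehicle array, and the gap was wide relative to the spread within groups (SD 3.65 in p-nitroanisole rats and 2.51 in vehicle rats, n = 3 each). The difference was 0.28 (SE 0.07), or 1.21-fold, with an unadjusted limma p of 0.00634 and an adjusted p of 0.201. Leaving out 1 array at a time gave 0.25 to 0.31, and median scaling 0.22. Atp5if1 is also known to act in heme synthesis in red cell precursors, from mouse and zebrafish. Red cell markers were higher on the same arrays, with values given below, and their part in the Atp5if1 difference was not tested.

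The 9 assembly factors, proteins that help build the complexes or join them into supercomplexes, had smaller differences by value. Their median difference was 0.058, with 7 of 9 above 0 and 1 of 9 without overlap. Of all rows 52.4% were above 0 and 11.9% were higher without overlap, so the count without overlap was near that of all rows. By array the shifts of the assembly factors overlapped between the groups under all 3 scalings. The median of the assembly factors against that of the subunits was not tested. Sdhaf1, which helps insert iron-sulfur clusters into complex II, read 17.3, 17.9 and 17.7 in p-nitroanisole rats, against 14.0, 18.5 and 11.7 in vehicle rats (difference 0.29, SE 0.17). The spread lay in the vehicle rats. Ndufaf1, an early factor of complex I, read 0.757, 0.857 and 0.729 in p-nitroanisole rats, against 0.720, 0.646 and 0.704 in vehicle rats (difference 0.18, SE 0.09). Ndufaf8 differed by 0.14 (SE 0.08). Cox7a2l, which helps join complexes III and IV into supercomplexes, was lower, at 32.8, 31.3 and 34.2 in p-nitroanisole rats, against 33.3, 39.0 and 38.0 in vehicle rats. The groups overlapped, with a difference of -0.16 (SE 0.09, limma adjusted p = 0.471), and 1 of its 2 probes was higher.

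**Figure D4:**
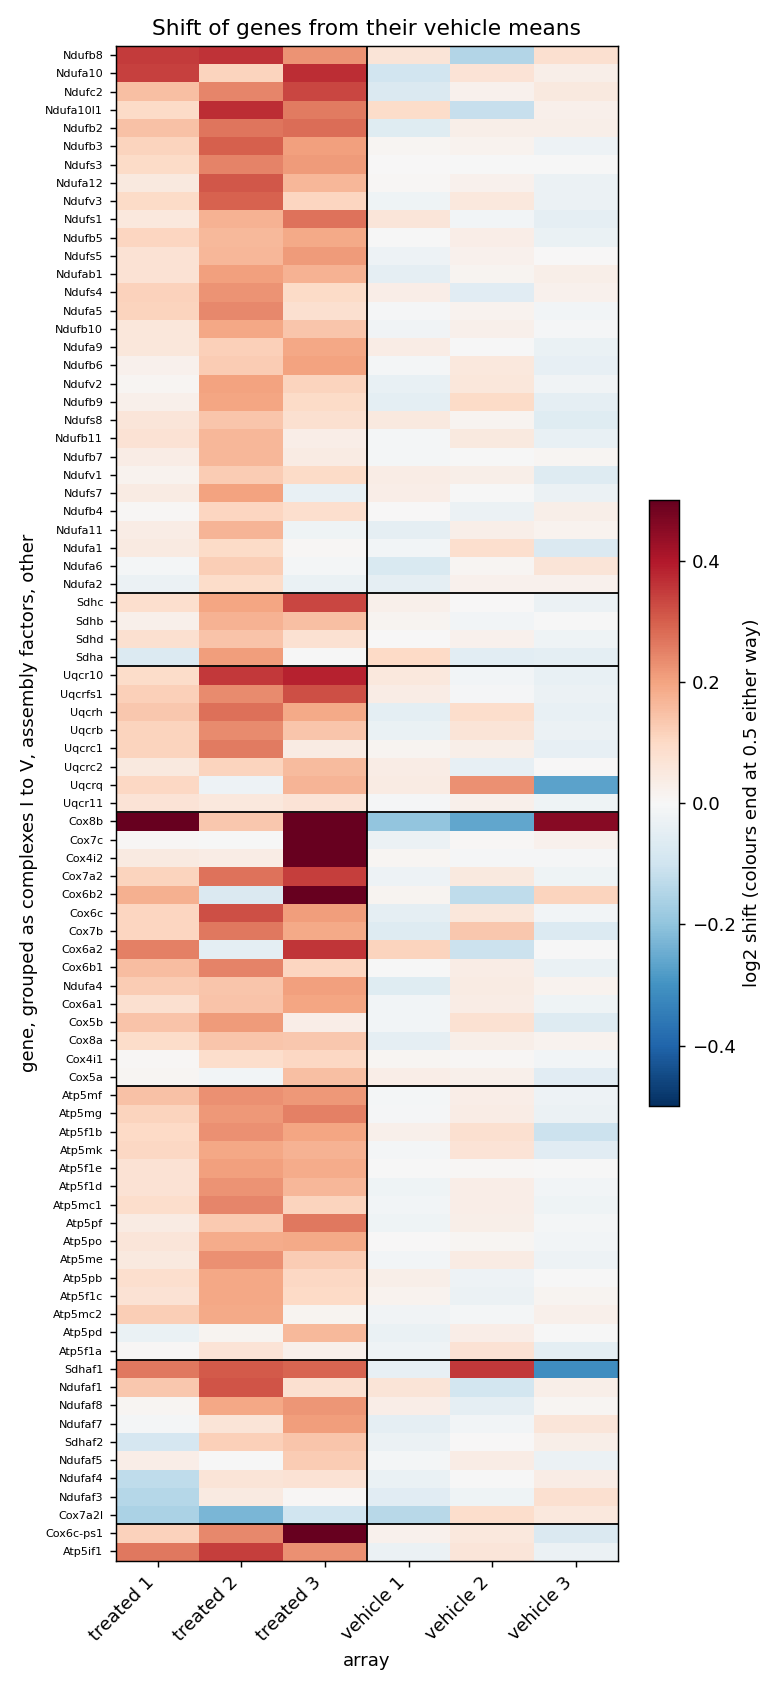
Log2 shift of the genes drawn from their vehicle means on each array under 75th percentile scaling, with red above and blue below, and colours that end at 0.5. Most subunit genes are red on all 3 treated (p-nitroanisole) arrays and palest on treated replicate 1, and dark cells on treated replicate 3 mark Cox7c, Cox4i2, Cox6c-ps1 and Cox6b2, while Cox8b is dark on treated replicates 1 and 3.

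Other genes of the pathway and of mitochondria were taken from lists outside the symbol rule. In none of these lists was a gene called. Of 14 tricarboxylic acid cycle genes 13 were higher with a median difference of 0.14, and citrate synthase (Cs), which starts the cycle, differed by 0.20 (SE 0.09). Of 10 mitochondrial carriers and channels 8 were higher with a median of 0.14, among them Slc25a3, the phosphate carrier that supplies ATP synthase, at 0.21 (SE 0.07). Electron carriers and other entry points to the chain had 13 of 19 higher and a median of 0.090, with Coq10a, a coenzyme Q binding protein, at 0.35 (SE 0.10). Assembly factors outside the symbol rule had 27 of 36 higher and a median of 0.042, which was -0.014 under median scaling. The translational activator of the complex IV subunit 1, Taco1, differed by 0.24 (SE 0.09). Regulators of mitochondrial genes had 6 of 17 higher and 11 lower, with a median of -0.020, although Tfb1m, which methylates mitochondrial ribosomal RNA, differed by 0.26 (SE 0.09). By value, the tricarboxylic acid cycle and carrier genes stood near the respiratory subunits and the regulators did not.

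Markers of kidney and blood cells were read on the same arrays. The labels name the tissue as renal cortex, and markers of the proximal tubule passed the filter on background in 20 of 20 genes. Proximal tubule markers had 15 of 20 higher with a median of 0.099 and a summed signal of 2891 to 3026 in p-nitroanisole rats, against 2785 to 2809 in vehicle rats. Thick limb and distal tubule markers had 6 of 8 higher with a median of 0.12 (summed signal 618 to 636 in p-nitroanisole rats, against 510 to 647 in vehicle rats), and collecting duct markers 9 of 10 lower with a median of -0.23 (summed signal 231 to 243 in p-nitroanisole rats, against 254 to 287 in vehicle rats). Red cell markers were all higher, 10 of 10, with a median of 1.36 and a summed signal of 1709 to 1956 in p-nitroanisole rats, against 755 to 923 in vehicle rats. The 3 genes of this list that passed the test were the globins Hbb-b1 and Hba-a3, which rose by 1.14 (SE 0.10) and 1.34 (SE 0.12), and Alas2, which starts heme synthesis in developing red cells and rose by 1.91 (SE 0.14), with limma adjusted p from 0.040 to 0.049. T and NK cell markers were lower in 13 of 13, with a median of -0.36 (summed signal 2.34 to 3.07 in p-nitroanisole rats, against 3.06 to 3.18 in vehicle rats) and macrophage markers in 8 of 10, with a median of -0.37 (summed signal 71.5 to 78.9 in p-nitroanisole rats, against 87.7 to 106 in vehicle rats). Genes on the list for brown fat were higher in 3 of 4, with a median of 0.15 (summed signal 2.41 to 3.86 in p-nitroanisole rats, against 2.76 to 3.33 in vehicle rats). The only gene on that list without overlap between the groups was Adipoq, which is not particular to brown fat. It was lower, with a difference of -0.70 (SE 0.26). Among macrophage markers the groups did not overlap in 2 lower genes and in 1 higher gene, Mrc1, with a difference of 0.52 (SE 0.18). The part of these cell types in the shift of the oxidative phosphorylation genes was not tested.

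**Figure D5:**
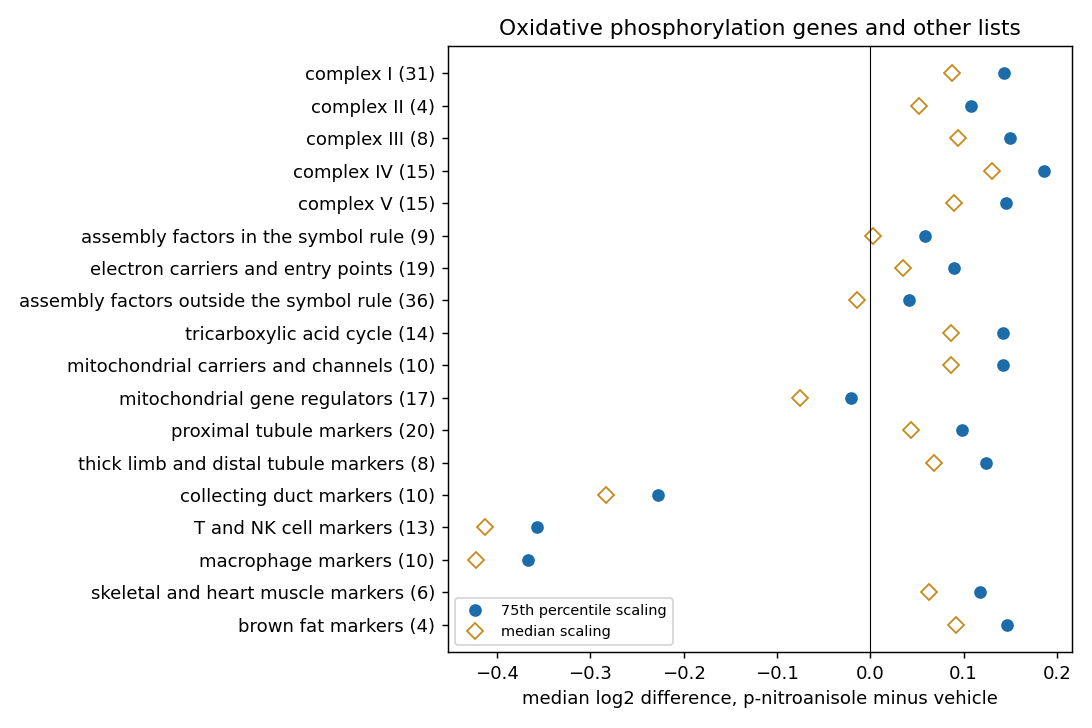
Median log2 difference (p-nitroanisole minus vehicle) of the genes of each complex and of other lists, with the number tested in brackets, under 75th percentile scaling (filled) and median scaling (open). Complexes, tricarboxylic acid cycle and carriers lie between 0.11 and 0.19 under percentile scaling, and red cell markers, at 1.36, are off the axis and not drawn.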

How the data were processed

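Renal cortex RNA of 3 p-nitroanisole and 3 vehicle rats was, per the labels' protocols, labelled with Cy3 and hybridised to 1-colour Agilent arrays. Scanner files as deposited give an intensity per spot from Agilent Feature Extraction 10.7, per the submitters' processing notes. The processed intensity is background-subtracted and not scaled between arrays, per the file headers. The deposited series matrix holds the authors' linear signal values, which follow the processed intensities divided by 1 constant per array, and was an alternative. The background flag of each spot is that of the deposited files.

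Each array had 61537 probes without control spots, of which 66.4% to 69.2% were well above background, with none saturated and a 75th percentile of 877 to 1022. Arrays correlated at 0.989 to 0.994 across tested rows, with p-nitroanisole replicate 3 lowest. Symbols came by accession from a RefSeq gene table (GRCr8), which named 28206 probes (45.8%) and 15645 genes. The build of the array design differs, so GRCr8 coordinates are given for promoter windows only.

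Log2 processed intensity, floored at 1 and scaled to each array's 75th percentile, was fitted in R (4.3.3) by the lmFit and eBayes functions of limma (3.58.1), two-sided, over 32197 rows, with Benjamini-Hochberg adjustment and a threshold of 0.05. Each gene was read from its brightest tested probe. The fit was tested on simulated data. With 3 arrays per group, the number of arrays limits the precision.

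The genes and lists were chosen with earlier results of these data known. The rule for named genes took any called gene, the 2 structural genes of each complex with the largest differences without overlap, the lowest difference of each complex, core and catalytic subunits, tissue isoforms and the 3 assembly factors with the largest differences. In the other lists it took called genes or, with none called, the gene with the largest difference without overlap. Ndufa10l1, Ndufaf3, Uqcrc2, Uqcrh, Cox6c, Cox7c and Cox6c-ps1 were added after their values were seen. 1 gene that the rule selects is not reported here. Replicate numbers did not pair the arrays: same-numbered deviations correlated at -0.0088, 0.040 and -0.010. Alternatives were other scalings, filters, probe rules, background correction and variance models, the series matrix values, slide, slide row, a replicate block, a stricter threshold (0.01) and every array left out in turn.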

Additional observations from a re-analysis of the deposited data

How the results depend on the processing

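With 3 arrays per group, differences near 0.1 on the log2 scale are about the size of their SE for a single gene, and 0 of the 84 genes were called under any alternative, with a smallest adjusted p of 0.054 (slide row 1 only) against 0.201. The number of genes higher with p-nitroanisole stayed between 69 and 83, except that 141 of 149 probes were higher with every probe as its own row. Median scaling gave medians of 0.089 for all genes and 0.088, 0.053, 0.095, 0.13 and 0.090 for complexes I to V, and quantile scaling 0.088 for all genes and 0.091, 0.11 and 0.033 for complexes I, IV and V. Median scaling also moved the median of all rows from 0.011 to -0.045 and quantile scaling to -0.016, and the cause of the larger move of complex V under quantile scaling was not tested. The complex IV median was 0.12 with slide as a block, which leaves p-nitroanisole replicate 3 without weight, and 0.12 to 0.18 when each array was left out in turn. Other medians moved by less than the spread between arrays.

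Small differences turned negative. Median scaling lowers the difference of every gene by the same amount, so there the smallest differences must turn. The cause under the other settings was not tested. Only genes taken by the rule for named genes are listed here, and further genes of the 84 also turned. Under median scaling the listed genes were Atp5f1a (-0.020), Cox5a (-0.0071), Ndufa2 (-0.045) and Sdha (-0.0089). Under quantile scaling they were Atp5f1a (-0.063), Cox4i1 (-0.059), Cox5a (-0.020), Cox8a (-0.066), Ndufa2 (-0.021), Ndufs7 (-0.0078), Sdha (-0.022) and Uqcr11 (-0.028). The normexp correction, chosen after seeing the data because the files lack the planned column, gave Ndufa2 -0.0088 and Sdha -0.024. The mean of a gene's probes gave Cox6a2 -0.074 and Ndufa2 -0.029. Slide row 1 alone gave Ndufa2 -0.033, Ndufs7 -0.037 and Sdha -0.00041, and slide as a block gave Cox5a -0.0018 (79 of the 84 genes were higher). Leaving out each array gave Cox5a -0.0018 to 0.079, Ndufa2 -0.031 to 0.032 and Sdha -0.034 to 0.10.

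Calls over all 32197 rows varied, being 24 by the setting used, 316 with a trended robust variance, 85 with normexp, 14 with the mean of probes, 9 with slide as a block, 2 without a filter, 0 in slide row 1 (6627 rows at an unadjusted p under 0.05) and 0 to 9 with an array left out. Genes of the 84 at an unadjusted p under 0.05 numbered 17, against 42 with the trended variance, 5 under median and under quantile scaling, 6 with slide as a block and 4 to 23 with an array left out. Over all 32197 rows the counts were 4329, against 4514 with the trended variance, 4721 under median scaling and 4427 under quantile scaling. They were 4361 with slide as a block and 3262 to 4361 with an array left out. With the replicate block, 1 row and 0 of the 84 genes were called, and the median difference of the 84 was 0.14. There 8 of the 84 and 3820 of all rows had an unadjusted p under 0.05. Further alternatives chosen after seeing the data, leaving out the genes high on p-nitroanisole replicate 3 and placing Ndufa4 in complex I, left the medians within the spread.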
